A study of Mus musculus with 18 samples.

Results

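The genes of MHC class II antigen presentation were followed in cell suspensions of mouse thymus, which consist mostly of thymocytes (developing T cells), at 6, 16 and 24 months of age. Members were the non-control probes whose gene name in the array files was one of 10: H2-Aa, H2-Ab1, H2-Eb1, H2-Ea, Cd74 (also written Ii), H2-DMa, H2-DMb1, H2-DMb2, H2-Oa and H2-Ob. Such probes were found for 8 of the 10 genes, 9 probes in all, of 41174 distinct probes and 12522 genes with a usable symbol on the array. H2-Aa had 2 probes and the other 7 genes 1 each, and no probe was named Cd74, Ii or H2-Ob.

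Each of 9 Agilent 2-colour arrays carried Cy3-labelled RNA of 1 older C57BL/6 mouse, with 3 mice at each of 6, 16 and 24 months, and Cy5-labelled RNA of 1 month C57BL/6 thymocytes. No mouse carried a transgene or received an agent, as far as the labels say. The suspension was strained, freed of fat cells by a wash and of red cells by ammonium chloride lysis; no sort is described, so that thymocytes were enriched by these steps alone. The study's design text calls the 1 month material a pool and the labels number single 1 month mice; it was treated here as 1 control sample. No array had the dyes swapped, so that age against the reference and Cy3 against Cy5 cannot be told apart. In comparisons between older ages the mice compared all carried Cy3, each as a ratio to the Cy5 of its array.

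MHC class II molecules are heterodimers of an alpha and a beta chain that show peptides from endosomes to CD4+ T cells. They are carried by dendritic cells, B cells, macrophages and thymic epithelial cells, and in the thymus they select the CD4+ lineage and delete self-reactive thymocytes. Mouse T-lineage cells themselves make little class II. Within the presenting cell the invariant chain, encoded by Cd74, fills the peptide groove during transport, H2-DM (H2-DMa with H2-DMb1 or H2-DMb2) exchanges the remaining invariant chain fragment for peptides, and H2-DO (H2-Oa with H2-Ob) restrains H2-DM. In bulk RNA a change in how many cells of a presenting type were present and a change in RNA per cell cannot be told apart.

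The promoters of this family share short elements that are bound by the RFX and NF-Y complexes, on which the coactivator CIITA is recruited. Windows of the 250 bases before the transcription start were read from RefSeq (GRCm38.p6) for 7 of the 10 genes, 8 windows in all because H2-DMa had 2. The letters CCTAGNNAC, a core of the X box bound by RFX, and ATTGG, a core of the Y box bound by NF-Y, were searched on both strands. The windows of 4 genes are shown, with the matches in capitals: those of an alpha and a beta chain and of H2-DMb1, whose values followed one another across the arrays, and that of H2-Oa, whose values did not. H2-Aa lies at chr17:34287824-34288073 on the minus strand, H2-Eb1 at chr17:34305617-34305866, H2-DMb1 at chr17:34152941-34153190 and H2-Oa at chr17:34092129-34092378, these 3 on the plus strand.
H2-Aa: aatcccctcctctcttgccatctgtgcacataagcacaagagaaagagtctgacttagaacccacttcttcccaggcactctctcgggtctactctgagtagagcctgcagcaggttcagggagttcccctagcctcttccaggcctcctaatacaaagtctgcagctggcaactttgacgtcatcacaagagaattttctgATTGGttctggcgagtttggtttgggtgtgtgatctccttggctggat
H2-Eb1: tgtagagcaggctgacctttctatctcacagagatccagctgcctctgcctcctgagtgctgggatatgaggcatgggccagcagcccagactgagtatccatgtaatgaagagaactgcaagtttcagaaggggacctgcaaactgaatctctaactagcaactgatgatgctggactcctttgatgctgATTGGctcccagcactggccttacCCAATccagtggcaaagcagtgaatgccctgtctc
H2-DMb1: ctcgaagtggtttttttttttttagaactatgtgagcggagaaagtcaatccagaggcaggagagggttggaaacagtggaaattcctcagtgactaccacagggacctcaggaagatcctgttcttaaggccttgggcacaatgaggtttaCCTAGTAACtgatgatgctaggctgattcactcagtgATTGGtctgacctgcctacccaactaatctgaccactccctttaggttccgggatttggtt
H2-Oa: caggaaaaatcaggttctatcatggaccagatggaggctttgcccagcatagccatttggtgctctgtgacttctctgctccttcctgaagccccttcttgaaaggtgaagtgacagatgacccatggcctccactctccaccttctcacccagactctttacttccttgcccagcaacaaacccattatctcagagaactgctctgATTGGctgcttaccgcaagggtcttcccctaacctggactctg
The Y box core was found in 7 of the 8 windows, against 33.8% of 32851 windows of the same length over all genes. The X box core was found in 2, those of H2-DMb1 and H2-Ob, against 3.37% of all windows, and both cores together in the same 2, against 1% of all. In H2-DMb1 the X box core began 98 bases before the start and the Y box core 61 bases before it, with 28 bases between them. The Y box core of H2-Aa began 48 bases before the start and that of H2-Oa 43 bases before it, and H2-Eb1 held a pair, at 59 and 35 bases. A window without a match only lacks these letters.

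The share of non-control features with signal well above background was 79.6% to 94.2% in Cy3 and 90.5% to 95.4% in Cy5. The lowest Cy3 share and the lowest median Cy3 signal over background (61.2, against up to 175 on 6 month replicate 1) were on 24 month replicate 2. Of the 15 thymocyte markers, 14 were tested, and the probes of Cd8b1 and Dntt, expressed by immature thymocytes, were saturated on all 9 arrays, so the labelled cell type was present. The values below are log2 ratios of the older mouse over the reference after background correction and loess normalization within arrays, with positive values for higher in the older mouse. Differences were tested with limma over 37448 probes, and a probe was called where the two-sided p, adjusted by the Benjamini-Hochberg method over all probes, was under 0.05; a gene with more than 1 probe was represented by its brightest. Of the 8 genes with a probe, 7 passed the filter on dim probes, with 8 probes. The exception was H2-Ea, which was not well above background in either dye on any of the 9 arrays and received no fold. C57BL/6 mice are known for a defective H2-Ea promoter and lack surface I-E, and RefSeq lists the gene as a transcribed pseudogene.

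Against the 1 month reference, 3 of the 7 genes were higher at 16 months and 3 at 24 months, and none at 6 months. H2-Ab1 and H2-Eb1, the beta chains of I-A and I-E, rose at both later ages by about the same factor, H2-Ab1 by 2.57-fold at 16 months and 2.47-fold at 24 months and H2-Eb1 by 2.03-fold and 2.08-fold. The sizes depended on the processing. With the scanner's processed signals the mean log2 ratios of H2-Ab1 were 1.83 and 1.82, against 1.36 and 1.30 here. Those of H2-Eb1 were 1.18 and 1.25, against 1.02 and 1.05. H2-DMb2 rose at 16 months and H2-Oa at 24 months, both by small amounts, and H2-Oa turned to -0.20 with median centring in place of loess. All 7 estimates lay above 0 at each age, with medians of 0.10, 0.60 and 0.68 at 6, 16 and 24 months against -0.01 over all tested probes at each age. The share of all probes called higher was 8.94% at 6 months, 13% at 16 months and 9.92% at 24 months, and the share called lower 7.67%, 11.4% and 11.5%; no member was called lower. At an unadjusted p under 0.05 there were 1, 7 and 5 of 7 member genes at the 3 ages, against 12904, 14717 and 13858 of the 37448 probes. The 4 genes not called at 16 months had adjusted p between 0.0535 and 0.0781 (H2-Oa 0.0535, H2-DMb1 0.061, H2-DMa 0.0636 and H2-Aa 0.0781).

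**Figure D1:**
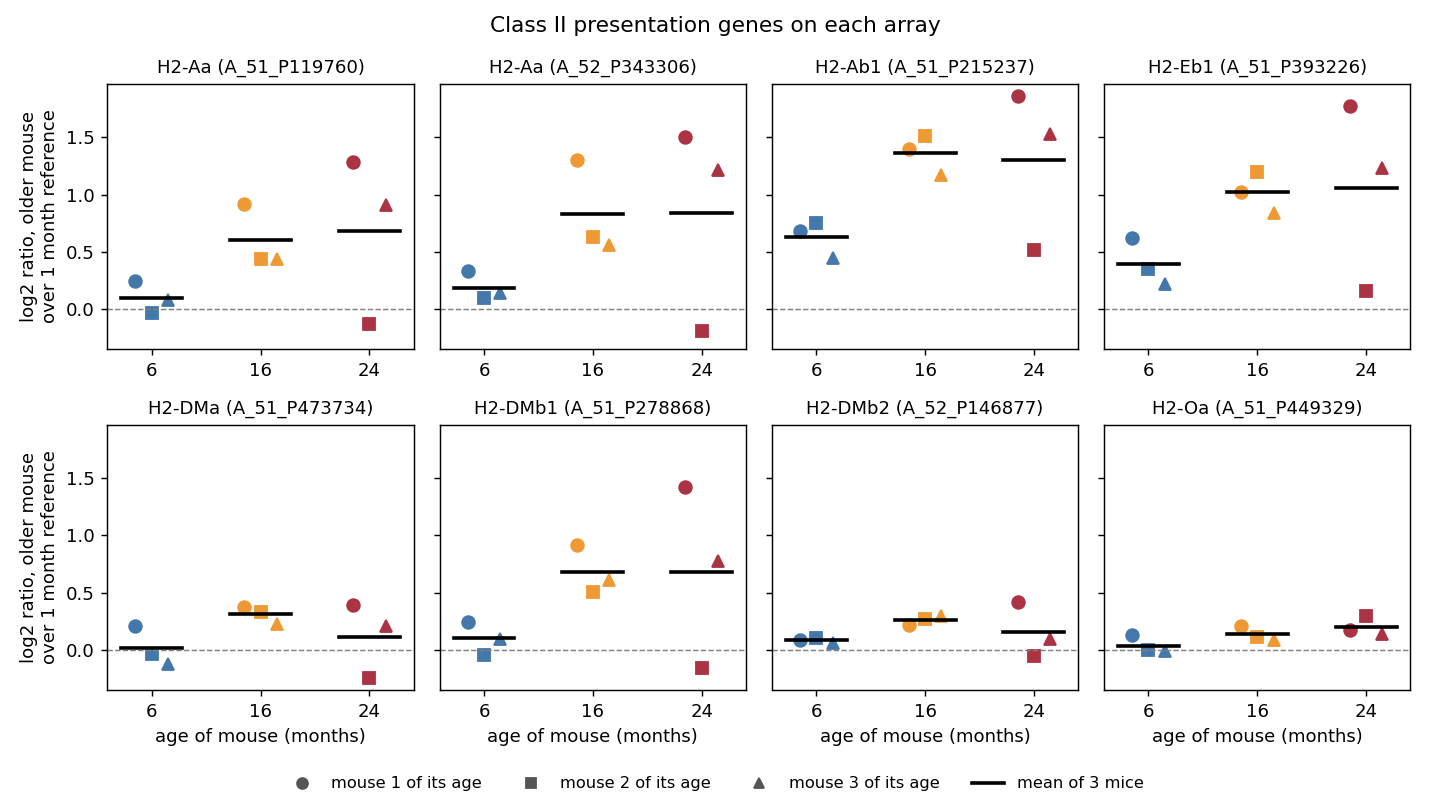
Log2 ratio of the older mouse over the 1 month reference (y axis) by age in months (x axis) for the 8 tested probes of 7 class II presentation genes; points are arrays, marker shape is the mouse number within its age, black lines are means of 3 mice and the dashed line marks equality. For 6 of the 7 genes all 3 16 month arrays lie above all 3 6 month arrays, and for 6 of the 7 the array of 24 month replicate 2 is the lowest of its age.

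Among the member probes the beta chain of I-A came first in size. Probes outside the member rule that are described as I-A-beta stood lower at 16 and 24 months. They were at 0.87 and 1.11 (A_52_P683598), 0.43 and 0.53 (A_52_P570717), and 0.08 and 0.15 (A_52_P557517, not called at these ages). H2-Ab1 (probe A_51_P215237) had log2 ratios of 0.68, 0.75 and 0.45 in the 3 mice of 6 months, 1.40, 1.51 and 1.17 at 16 months, and 1.86, 0.52 and 1.53 at 24 months. All 9 arrays were above the reference, the 16 month mice stood above every 6 month mouse, and at 24 months 2 mice were as high or higher while replicate 2 fell within the 6 month range. The differences were 0.63 ± 0.20 (SE, n = 3, limma adjusted p = 0.0672) at 6 months, 1.36 ± 0.20 (adjusted p = 0.00337) at 16 months and 1.30 ± 0.20 (adjusted p = 0.00459) at 24 months. Here and below the limma SE rests on 1 spread shared by all 9 arrays, not on the mice of that age alone. The SDs among the mice were 0.16, 0.18 and 0.70 at 6, 16 and 24 months. The call was kept at 16 and 24 months with each array left out in turn. At 6 months H2-Ab1 passed with the scanner's processed signals (0.95, adjusted p = 0.0268) and without 24 month replicate 2 (adjusted p = 0.00893) or replicate 1 (adjusted p = 0.0467), arrays that enter this comparison through the shared estimate of the spread.

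H2-Eb1 (A_51_P393226) encodes the beta chain of I-E, whose alpha chain is the gene that was below background here. Its log2 ratios were 0.62, 0.35 and 0.22 at 6 months, 1.02, 1.20 and 0.84 at 16 months and 1.77, 0.16 and 1.23 at 24 months. The 16 month mice again stood above every 6 month mouse, and 24 month replicate 2 was the lowest of all 9 arrays. The differences from the reference were 0.40 ± 0.24 (adjusted p = 0.274), 1.02 ± 0.24 (adjusted p = 0.0173) and 1.05 ± 0.24 (SE, n = 3 mice per age, limma, adjusted p = 0.0175). The SDs among the mice were 0.20, 0.18 and 0.82 at 6, 16 and 24 months. Without 16 month replicate 1 or 2 the adjusted p at 16 months was 0.0562 or 0.105, and without 24 month replicate 1 or 3 that at 24 months was 0.0953 or 0.0738. With median centring in place of loess the differences were 0.69 (adjusted p = 0.0578) and 0.61 (adjusted p = 0.0631).

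H2-Aa encodes the alpha chain of I-A, the partner of H2-Ab1. Its brighter probe (A_51_P119760) had log2 ratios of 0.25, -0.03 and 0.08 at 6 months, 0.92, 0.44 and 0.44 at 16 months and 1.28, -0.13 and 0.91 at 24 months. Its other probe (A_52_P343306) gave 0.33, 0.10 and 0.14, then 1.30, 0.63 and 0.56, then 1.50, -0.19 and 1.21. Both probes ordered the arrays in nearly the same way, with 24 month replicate 1 highest and replicate 2 lowest. Neither passed: the brighter probe stood 0.60 ± 0.22 above the reference at 16 months (adjusted p = 0.0781) and 0.69 ± 0.22 at 24 months (SE, n = 3 mice per age, limma; adjusted p = 0.0552). The SD among the 24 month mice was 0.73, against 0.28 at 16 months and 0.14 at 6 months.

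H2-DM removes the invariant chain fragment from the groove, and its subunits differed in the size of their values. H2-DMb1 (A_51_P278868) had log2 ratios of 0.25, -0.04 and 0.10 at 6 months, 0.92, 0.51 and 0.61 at 16 months and 1.42, -0.15 and 0.78 at 24 months. That is the same order of arrays at 24 months as for the chain genes, and the differences of 0.68 ± 0.23 at 16 months and 0.68 ± 0.23 at 24 months did not pass (SE, n = 3 mice per age, limma; adjusted p = 0.061 and 0.0651). H2-DMa (A_51_P473734), the alpha subunit, had 0.21, -0.03 and -0.12, then 0.38, 0.33 and 0.23, then 0.39, -0.24 and 0.21. Its 16 month mice stood above every 6 month mouse in a narrow band, and its difference of 0.31 ± 0.11 did not pass (adjusted p = 0.0636); at 24 months it was 0.12 ± 0.11 (SE, n = 3, limma; adjusted p = 0.452).

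H2-DMb2 (A_52_P146877), the alternative beta subunit, had log2 ratios of 0.09, 0.11 and 0.06 at 6 months, 0.22, 0.27 and 0.30 at 16 months and 0.42, -0.05 and 0.10 at 24 months. It rose at 16 months by 0.26 ± 0.07 (SE, n = 3, limma adjusted p = 0.0315), a factor of 1.20, and was 0.16 ± 0.07 above the reference at 24 months (adjusted p = 0.156). On 8 of 9 arrays its Cy3 signal was well above background, the exception being 24 month replicate 2. The 16 month call was lost with the processed signals (0.45, adjusted p = 0.133) and without any 1 of the 16 month arrays or 6 month replicate 2 (adjusted p from 0.0515 to 0.132). H2-DMb1 and H2-DMb2 are near-identical neighbours, and how far a probe of one also binds RNA of the other was not tested.

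H2-Oa (A_51_P449329), the alpha chain of the H2-DM inhibitor H2-DO, kept to small values. Its log2 ratios were 0.13, 0.00 and -0.01 at 6 months, 0.21, 0.12 and 0.09 at 16 months and 0.18, 0.30 and 0.14 at 24 months. All 3 24 month mice stood above all 3 6 month mice, and replicate 2, which was lowest at 24 months for the other 6 genes, was the highest for this one. The difference at 24 months was 0.21 ± 0.05 (SE, n = 3, limma adjusted p = 0.0153), a factor of 1.15. Its direction depends on the dye normalization: with median centring in place of loess it was -0.24, -0.10 and -0.20 at 6, 16 and 24 months, and with the processed signals the means were 0.07 ± 0.08, 0.17 ± 0.08 and 0.27 ± 0.12 (SD, n = 3 mice per age). Leaving out 24 month replicate 1 or 2 ended the call (adjusted p = 0.0634 and 0.0762).

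**Figure D2:**
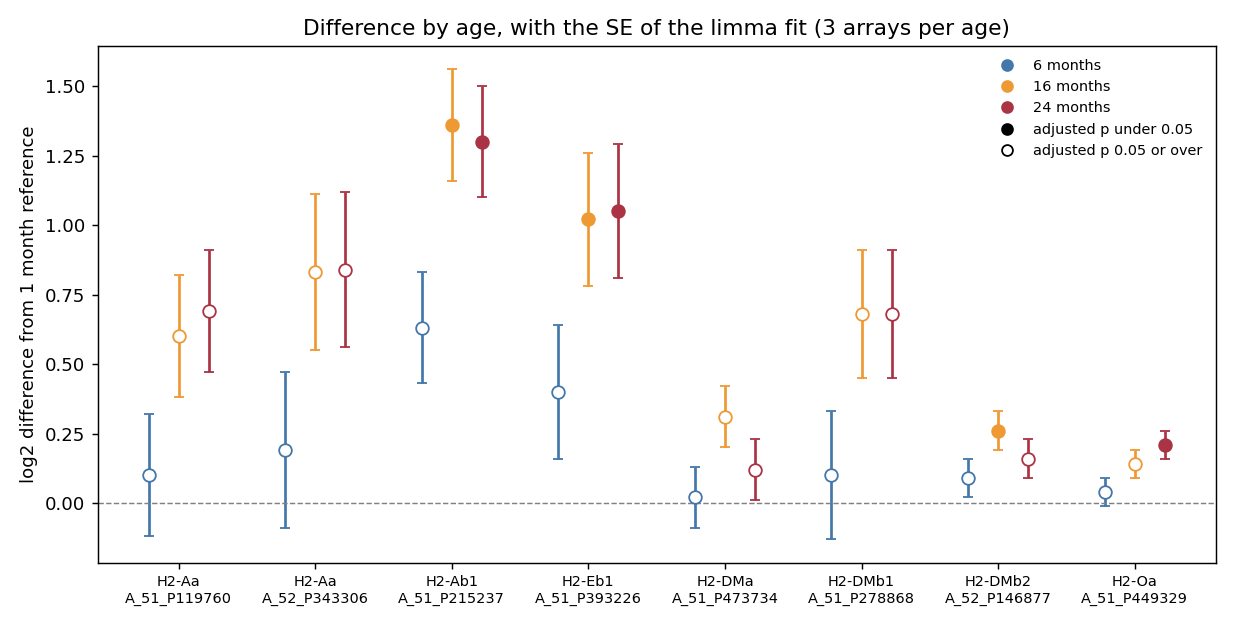
Log2 difference from the 1 month reference (y axis) for each tested probe (x axis) at 6, 16 and 24 months (colours), with bars for the SE of the limma fit on 3 arrays per age; filled points passed an adjusted p under 0.05. The filled points are H2-Ab1 and H2-Eb1 at 16 and 24 months, H2-DMb2 at 16 months and H2-Oa at 24 months, the last of which is -0.20 with median centring.

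With median centring in place of loess the estimates of every tested member but H2-Oa stayed above 0 at 16 and 24 months. No array was left out of the counts above. Without 24 month replicate 2, 7 of 7 member genes were called higher at 16 months, where 13.2% of all probes were, and 4 at 24 months (H2-Aa, H2-Ab1, H2-Eb1 and H2-DMb1), where 5.94% of all probes were. The 24 month differences of the other 2 mice were 1.09 for H2-Aa, 1.70 for H2-Ab1, 1.50 for H2-Eb1 and 1.10 for H2-DMb1. Without 24 month replicate 1 the counts were 5 at 16 months and 1 at 24 months, and without 16 month replicate 1 or 2 the count at 16 months was 1.

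The signals of each dye show where the spread lay. In Cy5, the 1 month reference, the processed signal of H2-Ab1 ranged from 472 to 675 over the 9 arrays, while in Cy3, the older mice, it ranged from 830 on 6 month replicate 3 to 3418 on 24 month replicate 1. For H2-Eb1 the Cy5 range was 1153 to 1793 and the Cy3 range 1449 to 5301. For H2-Oa both dyes moved in one range, 1195 to 2121 in Cy5 and 1388 to 2362 in Cy3. For 6 of the 7 member genes, all but H2-Ab1, the lowest Cy5 signal was on 24 month replicate 2, the array with the lowest median Cy3 signal.

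**Figure D3:**
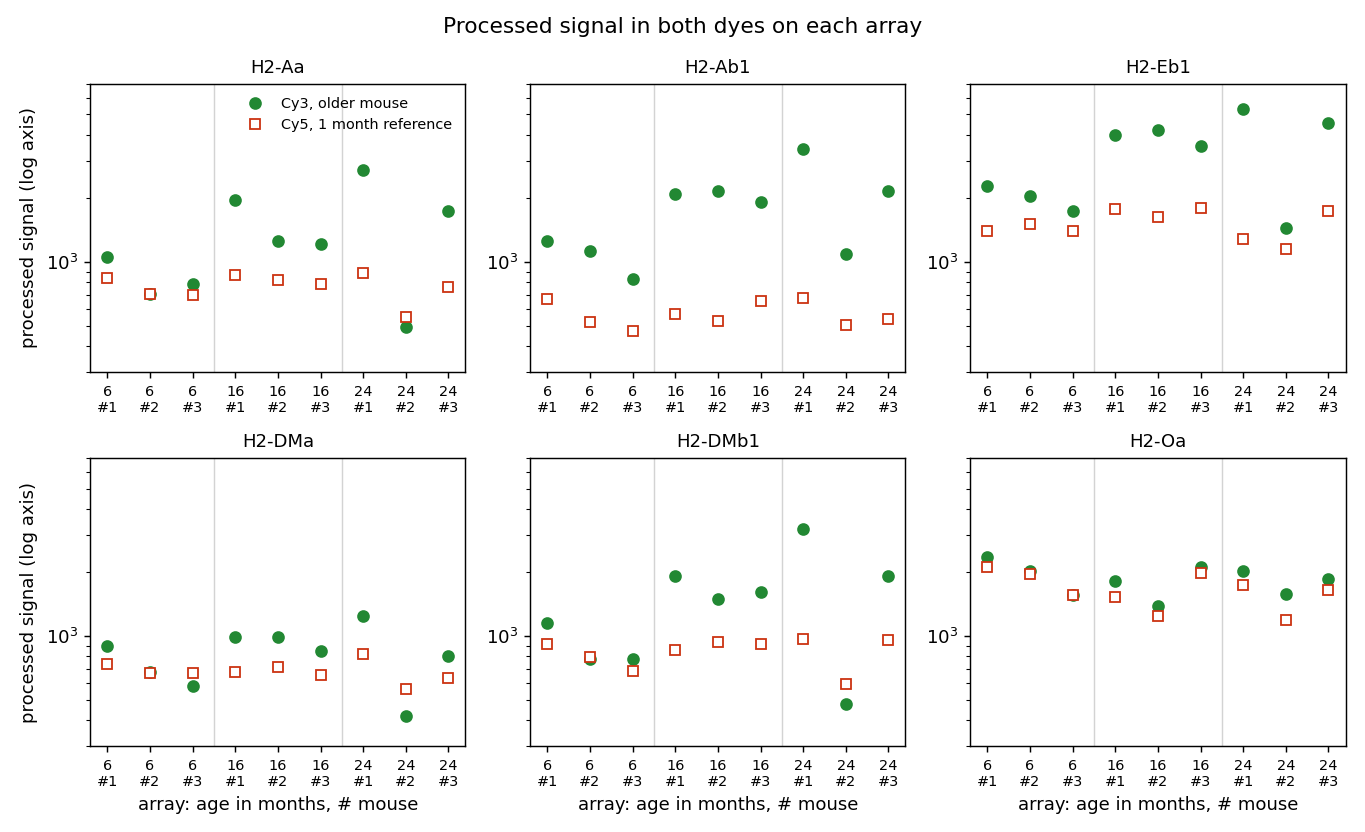
Agilent processed signal (y axis, log axis) of 6 member genes in Cy3 (older mouse, filled circles) and Cy5 (1 month reference, open squares) on the 9 arrays (x axis, age in months and mouse number). The Cy3 signals of H2-Ab1 at 16 months (1917 to 2163) all exceed those at 6 months (830 to 1252), while the Cy5 signals of all 9 arrays stay between 472 and 675.

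In comparisons between older ages the fixed dye order cancels, but dye trends that differ between arrays need not. Ifngr1, a chain of the interferon-gamma receptor, was 0.31 at 16 months and 0.38 at 24 months against the reference. With median centring in place of loess it was -0.48 and -0.97. At 16 against 6 months all 7 estimates were above 0, from 0.10 for H2-Oa to 0.73 for H2-Ab1, with a median of 0.50 against 0.00 over all tested probes. None was called, nor was any of the 37448 probes (0%), and 1 member gene had an unadjusted p under 0.05 (H2-Ab1, 0.73 ± 0.29, limma adjusted p = 0.61), against 3008 of all probes. All 3 16 month arrays stood above all 3 6 month arrays for 6 of 7 member genes, H2-Oa being the exception, and for 6.73% of all probes. At 24 against 6 months the median was 0.58 against -0.01 over all probes. Again 0 members and 0% of all probes were called, and 2 members had an unadjusted p under 0.05 (H2-Ab1, 0.68 ± 0.29, limma adjusted p = 0.575, and H2-Oa, 0.16 ± 0.06, adjusted p = 0.553), against 3190 of all probes. All 3 24 month arrays stood above all 3 6 month arrays for 1 member, H2-Oa, and for 5.99% of all probes. At 24 against 16 months the members ranged from -0.19 to 0.09, with 0 called, 0 at an unadjusted p under 0.05 against 1645 of all probes, and 0% of all probes called. For H2-Ab1 and H2-Eb1 the 16 and 24 month means differed by -0.06 ± 0.29 and 0.03 ± 0.34, within the SE.

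Across the 9 arrays the members moved with one another, apart from H2-Oa. The mean of H2-Aa, H2-Ab1 and H2-Eb1 was 0.52, 0.36 and 0.25 at 6 months, 1.11, 1.05 and 0.82 at 16 months and 1.64, 0.19 and 1.22 at 24 months. Pearson's r with this mean over the 9 arrays was 0.97 for H2-DMb1, 0.88 for H2-DMa, 0.80 for H2-DMb2 and 0.24 for H2-Oa. These are descriptions, since the arrays differ in age and signal and were treated as sharing 1 reference. Among 12354 probes of other genes well above background on all arrays, the 5 genes with the highest r were Gadd45g (0.983), Rassf3 (0.973), Ly6a (0.970), Lgmn (0.964) and Sema4a (0.957). Ly6a encodes the surface antigen Sca-1 and Lgmn the endosomal protease legumain, and these had wide ranges, from -0.19 to 0.89 and from -0.07 to 1.10, with the highest value of both on 24 month replicate 1. Rassf3 and Sema4a lay in narrow ranges, from -0.15 to 0.09 and from -0.01 to 0.14.

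Cd74 was not reached by gene name. A probe that the array file describes as the Ia-associated invariant chain (A_51_P284608), which is the protein that Cd74 encodes, was looked up by description after the names had failed. It had log2 ratios of 0.54, 0.18 and 0.14 at 6 months, 1.52, 1.25 and 0.83 at 16 months and 1.99, 0.04 and 1.51 at 24 months. It rose by 1.20 ± 0.30 at 16 months (SE, n = 3, limma adjusted p = 0.0227) and by 1.18 ± 0.30 at 24 months (adjusted p = 0.0272), with the same low mouse at 24 months as the chain genes. With median centring the differences were 0.77 and 0.48.

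The rest of the pathway was read from lists of genes that are not members. Median centring in place of loess moved the median of all probes from -0.01 to -0.06 at 16 months and to -0.08 at 24 months. It shifts each array by a single amount and, unlike loess, leaves trends with intensity in place. Single probes moved further, in both directions. At 24 months Ifngr1 went from 0.38 to -0.97 and a second probe described as H2-DMb2 (A_52_P1391) from 0.19 to 0.73. Several directions turned and several values moved, as given below. Of 7 tested genes of class II transcription, the components of RFX and NF-Y with Ciita, 1 was called higher and none lower at each of 6, 16 and 24 months, a share near that of all probes called higher (8.94%, 13% and 9.92%), with medians of 0.09 at 16 months and 0.05 at 24 months against -0.01 over all probes. Rfxank, an RFX subunit, rose by 0.31 ± 0.07 at 6 months and 0.47 ± 0.07 at 16 months (limma adjusted p = 0.0245 and 0.00374), and Nfya, the DNA-contacting subunit of NF-Y, by 1.08 ± 0.30 at 24 months (SE, n = 3, limma; adjusted p = 0.0348). With median centring Nfya was 0.15 at 24 months and Rfxank 0.28 at 16 months. Ciita, the coactivator that sets class II levels in presenting cells, was singled out after its values were seen. Its difference was 0.01 ± 0.06 at 16 months (adjusted p = 0.959) and 0.01 ± 0.06 at 24 months (limma, adjusted p = 0.913), with single arrays between -0.16 and 0.21.

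Of 10 tested genes of peptide processing and turnover, 2 were called higher and 1 lower at 16 months, and 3 higher and none lower at 24 months, with medians of 0.24 and 0.29. Of all probes 13% and 9.92% were called higher at these ages, and 11.4% and 11.5% lower. Ctsd, the aspartic protease cathepsin D, rose by 0.77 ± 0.07 at both ages (adjusted p = 0.000723 and 0.000907), and had already risen at 6 months, by 0.68 ± 0.07 (SE, n = 3, limma; adjusted p = 0.00237). Ctsz, a lysosomal carboxypeptidase, rose by 0.64 ± 0.12 and 0.53 ± 0.12, and Ifi30, the thiol reductase GILT, by 0.35 ± 0.10 at 24 months (limma adjusted p = 0.0409). Ctsl, the cathepsin of cortical thymic epithelium, fell by 0.26 ± 0.08 at 16 months (limma adjusted p = 0.0471). With median centring Ctsl was -0.90 at 16 months, Ctsd and Ctsz turned at 24 months, to -0.11 and -0.08, and the list's median to -0.13. The list's median on 24 month replicate 2 was -0.08, against 0.71 and 0.38 on the other 24 month arrays.

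At 16 and 24 months 13% and 9.92% of all probes were called higher, and 11.4% and 11.5% lower. Of 5 tested costimulation genes 1 was called higher at each later age, Cd274, the ligand PD-L1, by 0.16 ± 0.04 and 0.20 ± 0.04 (limma adjusted p = 0.03 and 0.016). The list medians were 0.06 at 16 months and 0.01 at 24 months, and Cd274 turned with median centring, to -0.11 and -0.21. Of 10 genes of the interferon-gamma axis, which induces class II through CIITA, 3 were called higher and none lower at each later age, with medians of 0.13 and 0.05. Ifng itself rose by 0.27 ± 0.05 and 0.21 ± 0.05, and its receptor chain Ifngr1 by 0.31 ± 0.08 and 0.38 ± 0.08. Jak2, the receptor's kinase, rose by 0.22 ± 0.06 at 16 months, and Socs1, its inhibitor, by 0.27 ± 0.08 at 24 months (limma adjusted p = 0.0293 and 0.0491). With median centring Ifng was 0.12 and -0.02, and Ifngr1 (-0.48 and -0.97), Jak2 (-0.10 at 16 months) and Socs1 (-0.91 at 24 months) turned, as did the list's medians (-0.26 and -0.57). Of the T cell surface proteins that bind class II, Cd4 rose by 0.31 ± 0.09 at 16 months (limma adjusted p = 0.0389), and Lag3 was not called at any age. No gene of these 5 lists was called between older ages.

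Markers of cells that carry class II were set beside the members array by array. Of 12 tested markers of macrophages and monocytes 3 were called higher at 16 months and 2 at 24 months, and of 10 tested dendritic cell markers 1 was higher and 1 lower at 16 months and 2 were higher at 24 months. Of all probes 13% and 9.92% were called higher at 16 and 24 months, and 11.4% and 11.5% lower. The dendritic cell counts at 16 months lay near these shares. Lyz1, a lysozyme, rose by 1.20 ± 0.23 and 0.87 ± 0.23, and Fcgr1, the high-affinity IgG receptor, by 0.36 ± 0.09 and 0.37 ± 0.09 (limma adjusted p from 0.00841 to 0.0299). With median centring Lyz1 was 0.76 and 0.24 and Fcgr1 0.27 and 0.32. Xcr1, of cross-presenting dendritic cells, rose by 0.21 ± 0.05 and Clec10a by 0.29 ± 0.06 at 24 months (limma adjusted p = 0.0211 and 0.0154), and both turned with median centring, to -0.56 and -0.02. Among the B cell markers Cd79b, a signalling chain of the B cell receptor, rose by 0.60 ± 0.14 at 16 months (limma adjusted p = 0.015), and none of the 11 tested was called at 24 months. Of 7 tested plasma cell markers 4 were higher at 16 months and 1 at 24 months, led by Jchain with 2.29 ± 0.26 and 2.20 ± 0.26 (limma adjusted p = 0.00135 and 0.00179).

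The macrophage list's median was between -0.10 and -0.05 at 6 months and between 0.09 and 0.23 at 16 months. On the 24 month arrays it was 0.35, -0.04 and 0.16, highest and lowest where the mean of the class II chain genes was. The dendritic cell median was 0.22, -0.06 and 0.13 on the 24 month arrays and the B cell median 0.11, -0.01 and 0.14. Replicate 2 was the lowest of its age for every gene list except those of granulocytes and red cells. The thymocyte median, for instance, was 0.30, 0.26 and 0.37, a narrower spread than that of the macrophage median. The cause of the low values on this array was not tested. The processed signals of the tested markers were also summed, a measure in which the brightest probes weigh most. For macrophages the log2 ratio of the sums to the reference ran from -0.33 to -0.16 at 6 months, 0.40 to 1.21 at 16 months and -0.01 to 1.18 at 24 months. For dendritic cells it ran from -0.03 to 0.03, 0.04 to 0.08 and -0.08 to 0.63. For B cells it ran from -0.00 to 0.02, 0.20 to 0.55 and -0.04 to 0.49. Zbtb46 and Ccl22 of the dendritic cell list and Mertk of the macrophage list were too dim to be tested. With median centring the macrophage median was 0.03 at 16 months and -0.11 at 24 months and the dendritic cell median -0.09 and 0.04, in place of 0.11, 0.13, 0.02 and 0.10. What part these cells had in the class II values was not tested.

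Thymic epithelium also carries class II. Against the 1 month reference, of its 11 tested markers 6 were called lower and none higher at 6 months, 3 lower and none higher at 16 months, and 2 lower and 2 higher at 24 months. The shares of all probes called lower at these ages were 7.67%, 11.4% and 11.5%, and those called higher 8.94%, 13% and 9.92%. Ccl25, an epithelial chemokine, fell by 2.11 ± 0.13 at 6 months, by 1.94 ± 0.13 at 16 months and by 1.49 ± 0.13 at 24 months (limma adjusted p = 0.000903, 0.000409 and 0.000887). Prss16, the thymus-specific serine protease, fell by 1.02 ± 0.10, 0.98 ± 0.10 and 0.63 ± 0.10 (limma adjusted p from 0.000861 to 0.00405). The keratin gene Krt18 was called lower at 16 months, at -0.86, and the 2 markers called higher at 24 months stood at 0.18 and 0.19. Between older ages the list's median difference was 0.10 at 16 against 6 months and 0.16 at 24 against 6 months, above 0 as for the members, with none called. At 24 against 6 months the keratin Krt18 stood at 1.08 ± 0.20 and Trp63, a transcription factor of epithelial progenitors, at 0.46 ± 0.10 (SE, n = 3 mice per age, limma; adjusted p = 0.437 for both). The list's median against the reference was between -0.28 and -0.12 at 6 months, between -0.14 and -0.07 at 16 months, and 0.18, -0.13 and -0.12 on the 24 month arrays, highest on the array where the class II chain genes were highest. What part epithelium had in the class II values was not tested. The mean of 4 haemoglobin probes, a sign of red cells, was -1.75, -1.73 and -1.09 at 6 months, 1.78, 1.19 and -0.67 at 16 months, and -1.71, 0.37 and 1.21 at 24 months. With it as a covariate the counts of member genes called were 0, 3 and 3 at 6, 16 and 24 months, and the 6 month estimates of 4 member genes turned below 0. Its part in the class II values was not tested otherwise. The granulocyte median was 1.32 on 16 month replicate 2 and between -0.30 and -0.09 on the other 8 arrays. Of the 14 tested thymocyte markers, 6, 8 and 7 were called higher at 6, 16 and 24 months, and 1 lower at each age. Over all probes 8.94%, 13% and 9.92% were called higher. The thymocyte medians were 0.34, 0.33 and 0.34, and with median centring -0.17 at 16 months and -0.69 at 24 months. The saturated probes of Cd8b1 and Dntt are among the 14.

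**Figure D4:**
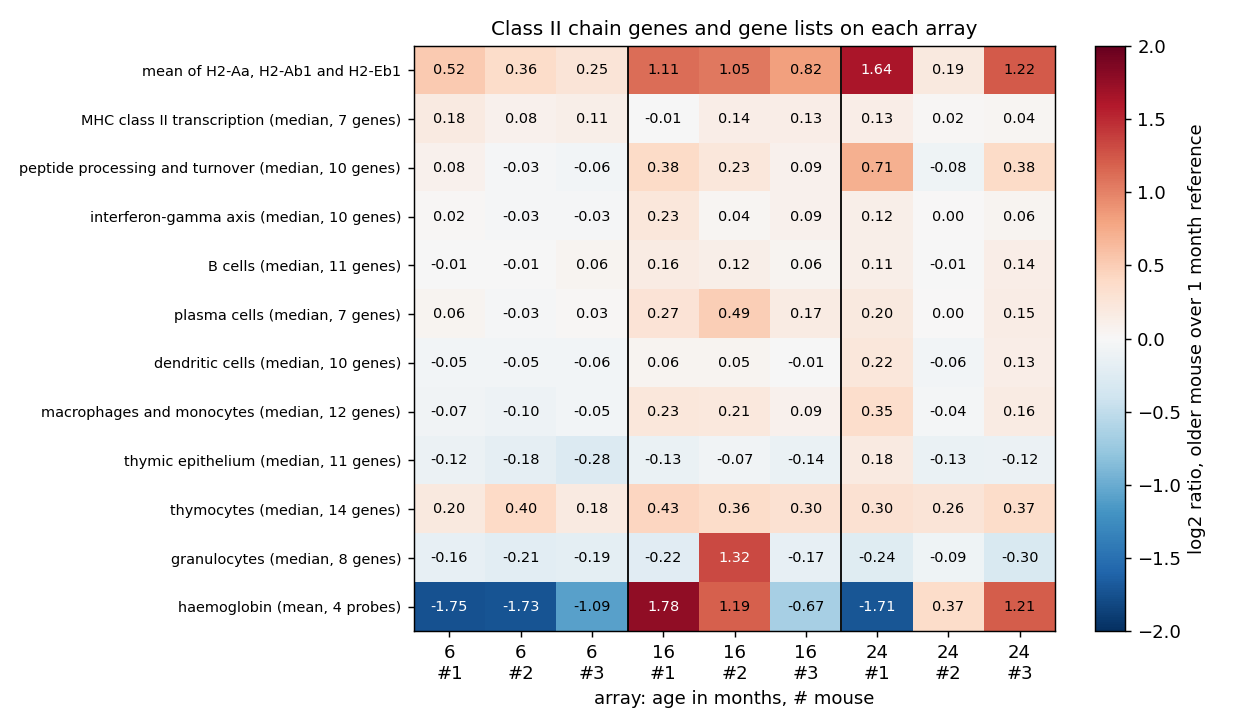
Log2 ratio of the older mouse over the 1 month reference (colour and printed value) for the mean of H2-Aa, H2-Ab1 and H2-Eb1, the medians of gene lists and the mean of 4 haemoglobin probes (rows) on the 9 arrays (columns, age in months and mouse number). On 24 month replicate 2 every row except granulocytes and haemoglobin has the lowest value of that age. These include the class II mean (0.19), the peptide processing median (-0.08), the macrophage median (-0.04) and the thymocyte median (0.26). Among the 24 month arrays haemoglobin is lowest on replicate 1 (-1.71).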

How the data were processed

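Thymocyte RNA of 9 older mice (Cy3) and of 1 month mice (Cy5) was measured on 9 Agilent 2-colour arrays, 18 samples in all; both samples of an array carried the same scanner file. The files hold intensity values, which the authors deposited as mean and background signals and as processed signals that were background-subtracted and dye-normalized by LOWESS (smooth factor 0.25), per the file headers. The headers name Feature Extraction 7.5.1 and the submitters' processing notes 7.1. The deposited value table holds scores, which were checked to be z-scores of the log10 processed signal per channel.

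Signals were corrected with normexp (offset 50) and normalized by loess within arrays in limma 3.58.1 (R 4.3.3), leaving out outlier spots; replicate spots were averaged. A probe was tested if its signal exceeded background (the scanner's flag) on all 3 Cy3 channels of an age or all 9 Cy5 channels. A single model of the 9 arrays gave each age its mean (residual degrees of freedom 6, prior 2.8). An age against the reference tests 3 log ratios against 0. If the 1 month material was a pool, this leaves out the spread between 1 month mice. The fit was tested on simulated data. Replicate numbers did not pair the arrays: correlations of same-numbered deviations ran from -0.469 to 0.222.

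The members and all gene lists were chosen with earlier results of these data known. Genes named outside the members were, per list, up to 4 called with the largest change at 16 and 24 months, or up to 2 with the smallest p, narrowed further (1 gene is not reported here), and 5 nearest patterns by Pearson's r over arrays with a value on all 9. Symbols were updated through RefSeq tables (11450 probes by accession); the array's genome build is not given in the sources used here, so only the promoters carry coordinates. Alternatives were processed signals, median centring, the authors' scores, no filter, a haemoglobin covariate, replicate blocks, the mean of a gene's probes, and each array left out. A block by date was not run, as the headers give 1 extraction day. The number of arrays limits the precision. Python 3.11.15, numpy 2.4.6, pandas 2.3.3 and matplotlib 3.10.9 were used.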

Additional observations from a re-analysis of the deposited data

Results flagged for a closer look

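The Cy5 reference signal of H2-Aa (A_51_P119760) stood apart on 24 month replicate 2. It was 548 there and between 700 and 887 on the other 8 arrays, and the gap to the next array was 0.51 of the whole log2 range, above Dixon's critical value for 9 samples. Chance flags about 1 in 20 groups, and 8 probes were examined. This is the array on which the Cy3 values of the class II genes were lowest at 24 months.

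Of 9 further probes that the array files describe as class II genes but name otherwise, 5 were called higher than the reference at both 16 and 24 months, where 13% and 9.92% of all probes were; the member rule does not use them. They were chosen by description after the data were seen. The invariant chain probe rose by 1.20 and 1.18, or by 0.77 and 0.48 with median centring. The probe described as the 3' end of H2-IA-beta of haplotype d (A_52_P683598) rose by 0.87 ± 0.26 (SE, n = 3, limma adjusted p = 0.0412) and 1.11 ± 0.26 (adjusted p = 0.02), with 1.94, 0.17 and 1.20 in the 24 month mice. With median centring in place of loess these differences were 0.41 and 0.37. The probe for H2-IA-beta of haplotype s (A_52_P570717) rose by 0.43 and 0.53, and the clone described as a class II antigen (A_52_P362106) by 0.91 and 0.88. With median centring the first of these was 0.52 and 0.64 and the second 1.01 and 1.10. A second probe described as H2-DMb2 (A_52_P1391) rose by 0.18 and 0.19, and by 0.47 and 0.73 with median centring. Its values at 24 months, 0.24, 0.15 and 0.19, did not show the low second mouse that the member probe of this gene showed (-0.05). The other 4, among them 2 for an E-beta 2 fragment, were not called at either age. Of these 4, the probe described as an I-A-beta precursor (A_52_P557517) was called at 6 months (0.21 ± 0.06, SE, n = 3, limma adjusted p = 0.0429). It stood at 0.08 and 0.15 at 16 and 24 months, or at -0.31 and -0.44 with median centring.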

How the results depend on the processing

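The counts of member genes called between older ages were 0 under every alternative run. With each array left out in turn, the count ran from 0 to 1 at 6 months, from 1 to 7 at 16 months and from 1 to 4 at 24 months. The count at 6 months was 1 with processed signals, 1 with the authors' scores and 2 with median centring, in place of 0. With the replicate block it was 5 at 16 months and 5 at 24 months, in place of 3 and 3; since the numbers did not pair the arrays, this changes the estimate of the spread only. Of 635 values of single members under alternatives, 574 kept their direction and their side of the threshold, 34 newly passed, 15 no longer passed and 12 turned, 1 of which was called in the fit reported above: H2-Oa at 24 months, -0.20 with median centring, which also gave it -0.24 at 6 months and -0.10 at 16 months. With the haemoglobin covariate the 6 month differences turned to -0.01 for H2-Aa, -0.05 for H2-DMa, -0.12 for H2-DMb1 and -0.05 for H2-DMb2. With 1 array left out, H2-DMa ran from -0.08 to 0.09 at 6 months, from -0.02 to 0.30 at 24 months and from -0.04 to 0.28 at 24 against 6 months, H2-DMb2 from -0.06 to 0.17 at 24 against 6 months, and H2-Oa from -0.00 to 0.07 at 6 months. The causes were not tested. The low signal of 24 month replicate 2 limits what can be read from dim members: H2-DMb2 was not well above background there in Cy3, and H2-Ea on no array.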
